A study of Mus musculus with 5 samples.

Results

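The subject is a set of 40 mouse genes that encode the contractile apparatus, the calcium release and storage proteins, the energy enzymes and the lineage factors of skeletal muscle, as measured in a beta cell line that had received vesicles from muscle. The members were taken by name: a gene belonged to the set when the array table gave its symbol among the 40 listed, and the probe with the highest mean signal stood for it. All 40 had a probe, out of 31896 gene names on the array. RNA of 5 samples of MIN6, a beta cell line that was derived from a mouse insulinoma and makes insulin, was hybridised to 5 Agilent mouse arrays with 1 colour. The EXO-STD group (n = 2) was incubated with exosomes from ex vivo muscle of mice on a standard diet, and the EXO-HP group (n = 3) with those from muscle of high fat diet mice. Both groups are the same cell line, both received muscle vesicles, and cells without vesicles were not analysed here. The labels call the samples biological replicates without naming separate vesicle preparations or cultures, so p-values measure only the spread between these samples, which may be technical. Slide 1, read in scan 1, held both EXO-STD arrays and replicate 1 of EXO-HP, and the other EXO-HP arrays were on slide 2, read in scan 2.

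In striated muscle, thick filaments of myosin pull on thin filaments of actin, and the Z disc anchors the thin filaments. Calcium released from the sarcoplasmic reticulum binds troponin C, which moves troponin I, troponin T and tropomyosin on the actin filament and lets myosin bind. Fast and slow fibres use different genes for many of these proteins, and a beta cell is not known to build sarcomeres. Vesicles can carry RNA of the cell that released them, and an array of whole-culture RNA cannot tell such RNA from RNA that the recipient cells transcribed. In RNA of a whole culture, fewer cells of a type and less RNA per cell cannot be told apart either.

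Each probe is a 60-base DNA sequence, and its position below is that of the array design on the mm9 mouse build. The sequences shown are coding probes: the second Myl1 probe, the overlapping Tnnt3 pair, a slow troponin and an actin that were high on EXO-HP replicate 1, and Ckm for contrast. The second Myl1 probe lies at chr1:66976853-66981100 on the minus strand, a span of 4248 bases, so it joins sequence from both sides of at least 1 intron. The Tnnt3 probes lie at chr7:149698500-149700262 and chr7:149698467-149698526 on the plus strand and share 27 bases, set in capitals. The Tnni1 probe lies at chr1:137705328-137706203 on the plus strand, the Acta1 probe at chr8:126416197-126416256 on the minus strand and the Ckm probe at chr7:20002222-20004829 on the plus strand. Each of the 6 has at least 1 reading frame without a stop codon. Of the 55 probes of the 40 genes, 12 span more genome than their own length, as spliced transcripts do.
Myl1, second probe: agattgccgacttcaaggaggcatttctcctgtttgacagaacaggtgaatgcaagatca
Tnnt3, brighter probe: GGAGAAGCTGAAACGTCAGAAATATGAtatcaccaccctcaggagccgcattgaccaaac
Tnnt3, dimmer probe: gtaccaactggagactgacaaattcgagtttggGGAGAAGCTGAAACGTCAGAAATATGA
Tnni1: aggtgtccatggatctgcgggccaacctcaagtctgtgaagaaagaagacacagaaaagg
Acta1: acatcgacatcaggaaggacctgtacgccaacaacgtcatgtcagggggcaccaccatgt
Ckm: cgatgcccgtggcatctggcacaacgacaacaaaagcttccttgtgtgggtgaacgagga

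All 10 beta cell markers read (Ins1, Ins2, Pdx1 and others) were well above background on all 5 arrays, where 68.5% of all genes were. That call alone does not identify a cell type, and the cells are named by the labels. The share of spots well above background, the scanner software's own call, was 73.4% and 71.8% under EXO-STD, and 74.0%, 91.6% and 81.6% for EXO-HP replicates 1 to 3. EXO-HP replicate 2 thus stood apart, and dim genes read higher on it. No spot was saturated. Values below are normalised log2 signals, that is log2 of the processed signal minus the array's 75th percentile. Apart from sums over gene lists, they are compared only between arrays for the same probe.

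Muscle transcripts were already detectable in the EXO-STD arrays. Of the 40 members, 29 and 26 were well above background on EXO-STD replicates 1 and 2, where 73.2% and 71.5% of 31821 genes were. On EXO-HP replicates 1, 2 and 3 the members numbered 32, 38 and 33, beside 73.7%, 91.9% and 81.5% of genes. On all 5 arrays 25 members were well above background (68.5% of genes), and 0 members were so on no array (6.73% of genes). The members' share was therefore near that of other genes on each array. The 5 members well above background on EXO-HP replicate 2 alone were the myosin heavy chains Myh1 and Myh4, the Z disc protein Actn2, titin (Ttn) and the calcium-storing protein calsequestrin (Casq1). Myl1 was well above background on EXO-HP replicate 1 alone.

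**Figure D1:**
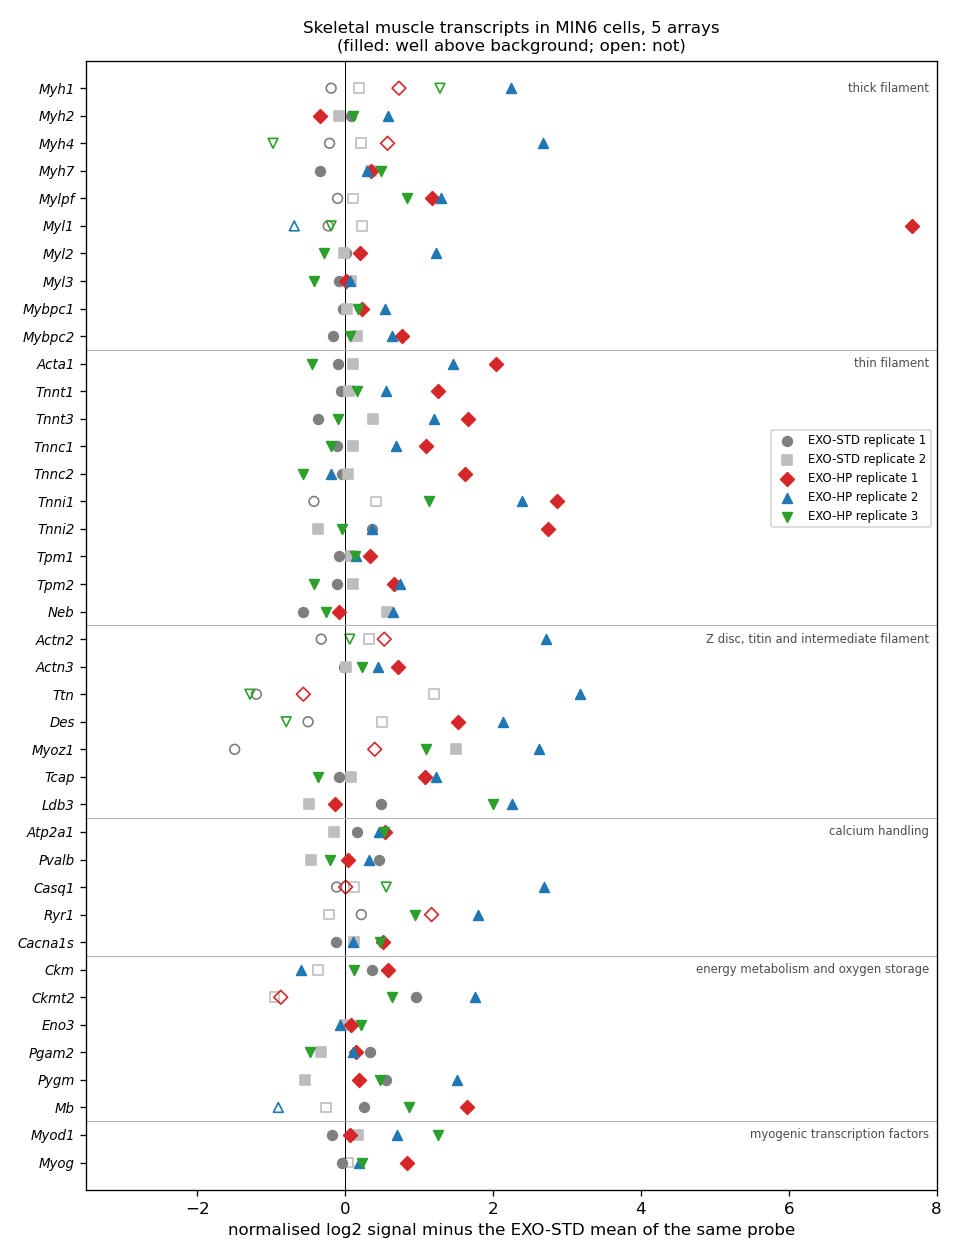
Normalised log2 signal of each of the 40 members on each of the 5 arrays, minus the EXO-STD mean of the same probe, in blocks by role in muscle; filled symbols are well above background and open ones are not. Myl1 on EXO-HP replicate 1 sits 7.67 log2 units above the EXO-STD mean, and several thin filament genes are also highest on that array, whereas the dim genes at the top of the Z disc and thick filament blocks are highest on EXO-HP replicate 2.

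Group means were higher under EXO-HP for 38 of the 40 members, beside 62.3% of all genes. The exceptions among the 40 were the slow myosin light chain Myl3 (-0.12) and the muscle phosphoglycerate mutase Pgam2 (-0.07). The number higher was 33 with median scaling, 31 with quantile scaling, 31 with normexp and 30 in the deposited value table. Under these alternatives the share of all genes was not computed. The median difference of all tested probes there was -0.10, -0.02, -0.01 and -0.02, in the same order. The median difference over the members was 0.52 log2 units, against 0.08 over all genes. Of the members, 34 were bright enough to be tested (32 higher, 2 lower, where 62.8% of tested probes were higher), with a median of 0.50 against 0.07 over all tested genes. In the limma fit with Benjamini-Hochberg adjustment, 0 members passed an adjusted p of 0.05, as did 0 of all 31943 tested probes (0%). At an unadjusted p under 0.05, 4 members were higher and 0 were lower, where 5.36% of tested probes were higher and 0.238% lower. Among the members counted as higher, Mylpf, Tnni1 and Ryr1 were well above background on neither EXO-STD array. They entered the test only through EXO-HP arrays, so the count is a description and no support for a shift. The shift was not even over the EXO-HP arrays. The members' median lay 0.56 above the EXO-STD mean on EXO-HP replicate 1, 0.66 above on replicate 2 and 0.12 above on replicate 3. The same medians over all genes were -0.01, 0.26 and 0.02. Within slide 1, the only slide that holds both groups, the comparison is that of EXO-HP replicate 1 with both EXO-STD arrays. With slide as a block the median of the tested members was 0.56. Without a block and over all arrays, the median of the tested members (0.50) was 0.22 with quantile scaling, 0.13 with normexp background correction and 0.17 in the deposited value table. The median with slide as a block was not computed under these alternatives. Scaling by each array's median moved the median of all tested probes from 0.07 to -0.10 and that of the members to 0.32.

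All 3 EXO-HP arrays lay above both EXO-STD arrays for 10 members (13.2% of genes) and below both for 0 (2.57% of genes). The 10 were Myh1, Mylpf, Mybpc1, Tnnt1, Tnni1, Tpm1, Actn3, Atp2a1, Ryr1 and Myog. The count was 7 with quantile scaling, 7 with median scaling, and 4 with normexp and in the deposited value table, where the 4 were Myh1, Tnni1, Tpm1 and Atp2a1. The share of all genes was not computed under these alternatives, so their counts have no background beside them. The highest of the 5 arrays was EXO-HP replicate 1 for 16 members (13.3% of genes), EXO-HP replicate 2 for 18 (43.6% of genes) and EXO-HP replicate 3 for 3 (15.2% of genes). EXO-STD replicate 1 was highest for 2 members (12.9% of genes) and EXO-STD replicate 2 for 1 (15.1% of genes).

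Thick filament genes differed widely among themselves, and Myl1 stood apart from every other gene on the array. Myl1 encodes the fast skeletal essential myosin light chain. Its brightest probe (chr1:66970948-66971007, minus strand) read -8.30 and -7.84 on the EXO-STD arrays and -0.40, -8.76 and -8.26 on EXO-HP replicates 1, 2 and 3. In processed signal units these are 6.08 and 9.99, then 1279, 5.23 and 6.77. The signal was thus present on 1 array and at background on the other 4, 2 of them in the same group. On EXO-HP replicate 1 it was at least 59.6-fold above EXO-STD, measured against the lowest signal well above background on the EXO-STD arrays. EXO-HP replicate 1 exceeded the highest of the other arrays by 7.44 log2 units, rank 1 of 31821 genes. The second Myl1 probe, whose sequence is given above, read 54.8 in processed signal on EXO-HP replicate 1 and 3.67 and 2.99 on EXO-HP replicates 2 and 3. On the EXO-STD arrays it read 4.51 and 7.72, so probes against different stretches of the transcript singled out the same array. Because it was well above background on 1 array only, Myl1 was not among the tested probes. Its group difference was 2.26 ± 2.74 (SE), and without EXO-HP replicate 1 it was -0.44.

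Mylpf, the fast regulatory light chain, read -6.76 and -6.56 under EXO-STD and -5.49, -5.37 and -5.83 under EXO-HP. Each EXO-HP array, and neither EXO-STD array, had it well above background, and the groups did not overlap. Its difference was 1.10 ± 0.23 (SE), at least 1.67-fold. The limma unadjusted p was 0.0036, the smallest of any member, and the adjusted p was 0.884. The difference depended on the scaling, with 0.47 under quantile scaling, 0.22 in the deposited value table and 0.14 under normexp. In these 3 settings EXO-HP replicate 2 lay below the EXO-STD mean, at differences of -0.12, -0.11 and -0.063. The fast myosin binding protein Mybpc2 read -5.79 and -5.46 under EXO-STD and -4.85, -4.99 and -5.55 under EXO-HP, which overlapped (0.49 ± 0.29, limma adjusted p = 0.979; -0.0015 with quantile scaling). Its slow relative Mybpc1 differed by 0.32 ± 0.21.

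The myosin heavy chains did not follow Myl1. The slow heavy chain Myh7 read -4.35 and -3.66 under EXO-STD and -3.66, -3.71 and -3.52 under EXO-HP, so EXO-STD replicate 1 alone was low (0.37 ± 0.27, 95% interval -0.29 to 1.04). Scaling moved the Myh7 difference to 0.12 (quantile) and 0.073 (normexp). Myh4, the heavy chain of the fastest fibres, had processed signals of 5.5 and 8.81 under EXO-STD and 8.34, 47.9 and 3.51 under EXO-HP. It was therefore high on EXO-HP replicate 2 and at background on EXO-HP replicate 1, where Myl1 was high. Myh1 was likewise well above background on EXO-HP replicate 2 only, at least 1.40-fold above EXO-STD there. Myh2, the heavy chain of oxidative fast fibres, differed by 0.11 ± 0.31. The slow regulatory light chain Myl2 read -5.76 and -5.79 under EXO-STD and -5.57, -4.55 and -6.06 under EXO-HP, with EXO-HP replicate 2 high (0.38 ± 0.46, and -0.039 without it).

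Of the 10 thin filament genes, 8 were highest on EXO-HP replicate 1 (13.3% of all genes were), among them all 6 troponins, while Tpm2 and Neb were highest on EXO-HP replicate 2. On EXO-HP replicate 1, 7 of the 10 thin filament members exceeded the EXO-STD mean by over 1 log2 unit, where 2.75% of all genes did. The count was 3 of 10 (23.8% of genes) for EXO-HP replicate 2 and 1 of 10 (7.46% of genes) for EXO-HP replicate 3. The median of the thin filament members relative to EXO-STD was 1.44, 0.66 and -0.15 on EXO-HP replicates 1, 2 and 3. The 7 were all 6 troponins and Acta1. The troponins were singled out after their values were seen, so their count is a description.

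Tnni2, the fast inhibitory troponin, read -3.37 and -4.11 under EXO-STD and -0.998, -3.38 and -3.78 under EXO-HP. EXO-HP replicate 1 was 6.69-fold above the EXO-STD mean and 2.37 log2 units above every other array, while EXO-HP replicates 2 and 3 lay within the EXO-STD range. Tnnc2, the fast calcium-binding troponin, read -2.78 and -2.70 under EXO-STD and -1.12, -2.93 and -3.31 under EXO-HP. EXO-HP replicate 1 was 3.07-fold above the EXO-STD mean, and EXO-HP replicates 2 and 3 were below both EXO-STD arrays. The group differences of Tnni2 (1.02 ± 0.86) and Tnnc2 (0.28 ± 0.67) each had a limma adjusted p of 1.00, and that of Tnnc2 was -0.38 without EXO-HP replicate 1.

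Tnnt3, the fast tropomyosin-binding troponin, read -5.37 and -4.63 under EXO-STD and -3.33, -3.79 and -5.10 under EXO-HP on its brighter probe (0.92 ± 0.57, and 0.34 with normexp). Its dimmer probe, which shares 27 bases with the brighter one, had processed signals of 4.74 and 12.8 under EXO-STD and 189, 52.9 and 3.17 under EXO-HP. Both probes ranked EXO-HP replicate 1 first and EXO-HP replicate 2 next, and on EXO-HP replicate 1 the dimmer one was at least 8.81-fold above EXO-STD. The probes share sequence and are not independent readings.

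Slow troponins, like the fast ones, were highest on EXO-HP replicate 1. Tnni1, the slow inhibitory troponin, read -7.11 and -6.26 under EXO-STD and -3.82, -4.29 and -5.54 under EXO-HP. It was above background on every EXO-HP array and on neither EXO-STD array, and it was the member with the largest difference among those tested (2.13 ± 0.57, at least 3.37-fold). The limma unadjusted p was 0.0107 and the adjusted p 0.884. Its difference was 1.62 with quantile scaling, 0.94 in the deposited value table and 0.56 with normexp. Tnnt1, the slow tropomyosin-binding troponin, read -2.75 and -2.65 under EXO-STD and -1.44, -2.15 and -2.53 under EXO-HP, all above both EXO-STD arrays (0.66 ± 0.35, limma adjusted p = 0.956, and 0.39 with normexp). Tnnc1, shared by slow and cardiac muscle, read -3.97 and -3.76 under EXO-STD and -2.78, -3.18 and -4.06 under EXO-HP, with EXO-HP replicate 3 below both EXO-STD arrays (0.53 ± 0.40, and 0.20 with normexp).

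Acta1, the actin of adult skeletal thin filaments, read -4.39 and -4.19 under EXO-STD and -2.25, -2.83 and -4.74 under EXO-HP. EXO-HP replicates 1 and 2 were 4.11-fold and 2.74-fold above the EXO-STD mean and EXO-HP replicate 3 was below both EXO-STD arrays (1.01 ± 0.73). Actin genes are very alike in their coding sequence, and binding of other actin transcripts to this coding probe was not tested. Tropomyosins Tpm1 and Tpm2 differed by 0.20 ± 0.20 and 0.32 ± 0.40. A second Tpm2 probe had processed signals of 5.66 and 18.99 under EXO-STD and 47.3, 50.6 and 3.87 under EXO-HP, the order of arrays also seen for Acta1 in that EXO-HP replicate 3 was low. The giant filament protein nebulin (Neb) differed by 0.10 ± 0.44.

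**Figure D2:**
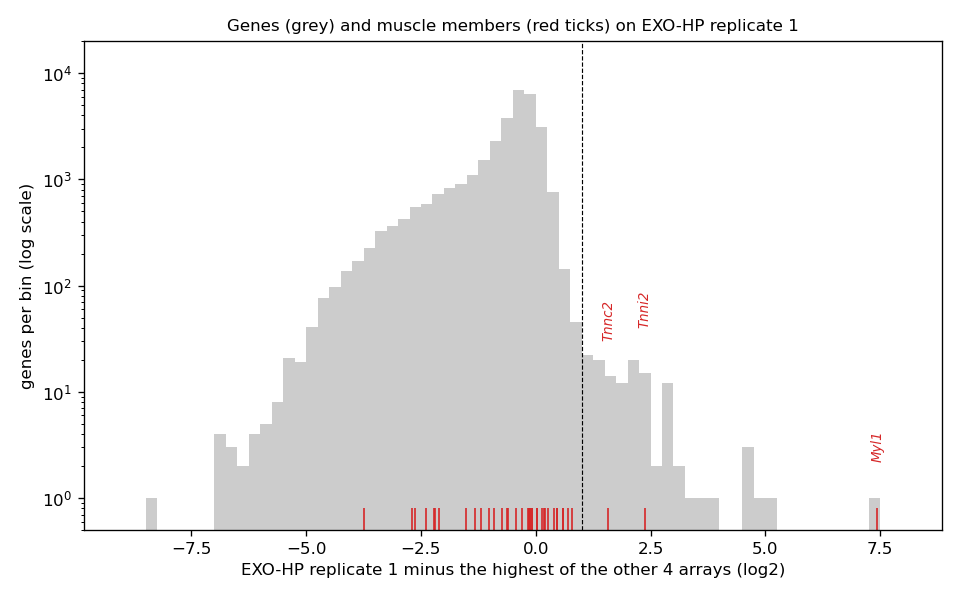
Histogram, on a log count axis, of 31821 genes by how far EXO-HP replicate 1 lay above the highest of the other 4 arrays, with the 40 members as red ticks and a dashed line at 1 log2 unit. Myl1 lies farthest right at 7.44, Tnni2 at 2.37 and Tnnc2 at 1.58, and the remaining 37 members lie left of the line.

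Only 3 members exceeded all other arrays by over 1 log2 unit on EXO-HP replicate 1, namely Myl1, Tnni2 and Tnnc2, where 0.402% of all genes did. On EXO-HP replicate 2 the number was 6 members, where 12.0% of all genes did, so the members' share there was near that of other genes. EXO-HP replicate 1 is the only EXO-HP array on slide 1, so its differences are also the within-slide ones, and with 1 array against 2 they are given without a test. Another background correction (normexp) with quantile scaling gave the lowest values of EXO-HP replicate 1 over EXO-STD, 4.14 for Myl1, 2.00 for Tnni2 and 0.99 for Tnni1.

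Of the 7 Z disc and cytoskeletal genes, all but Actn3 were highest on EXO-HP replicate 2, the array with the most spots above background, on which 43.6% of all genes were highest. Their median was 0.53, 2.26 and 0.06 above EXO-STD on EXO-HP replicates 1, 2 and 3, and that of all genes on replicate 2 was 0.26. Actn2, Ttn and Des were well above background on neither EXO-STD array, and Myoz1 on EXO-STD replicate 2 only. Over all genes detected on neither or on 1 EXO-STD array, the EXO-HP replicate 2 medians were 1.60 and 0.88. Actn3, the fast fibre alpha-actinin, read -4.27 and -4.25 under EXO-STD and -3.55, -3.82 and -4.04 under EXO-HP, with no overlap (0.46 ± 0.22, limma adjusted p = 0.934). With quantile scaling, in the deposited value table and with normexp its difference was 0.20, 0.10 and 0.088, and EXO-HP replicate 2 lay below the EXO-STD mean in each. Ldb3, which binds alpha-actinin at the Z disc, read -3.03 and -4.01 under EXO-STD and -3.66, -1.26 and -1.53 under EXO-HP. Its high values were those of both slide 2 arrays, EXO-HP replicates 2 and 3, and its difference of 1.37 ± 0.79 turned to -0.14 with slide as a block. A second Ldb3 probe differed by 0.34. The titin cap Tcap differed by 0.65 ± 0.52 and the Z disc protein Myoz1 by 1.37 ± 1.04. Titin was highest on EXO-HP replicate 2 (3.18 above the EXO-STD mean) and at background elsewhere, and none of its 3 other probes was well above background on more than 1 array.

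Desmin (Des), the muscle intermediate filament, was printed in 10 spots per array, which shows the error within an array. The spots spanned processed signals of 14.2 to 28.8 and 20.2 to 177 on the EXO-STD arrays. For EXO-HP replicates 1 to 3 they spanned 49.2 to 93.8, 136 to 213 and 13.3 to 25.1. On EXO-HP replicates 1 and 2 all spots exceeded every spot of EXO-STD replicate 1 and of EXO-HP replicate 3. The EXO-STD replicate 2 spots ran across most of that range, and the group difference was 0.95 ± 0.91. The SD between the EXO-HP arrays was 1.55 log2 units, and the SD over spots was 0.97 on EXO-STD replicate 2 and at most 0.36 on the other arrays.

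**Figure D3:**
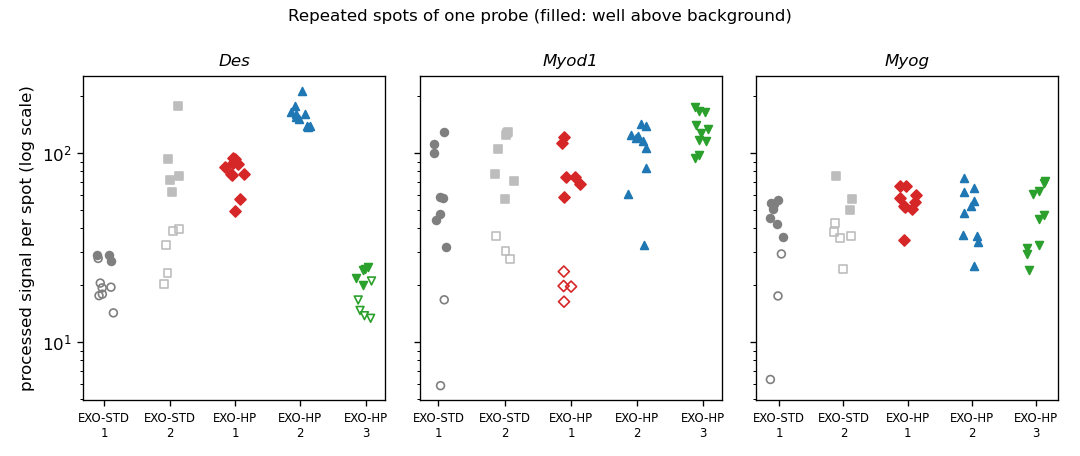
Processed signal (log axis) of each usable spot of Des, Myod1 and Myog on each array, filled where the spot was well above background. Des spots run from 136 to 213 on EXO-HP replicate 2 and from 49.2 to 93.8 on EXO-HP replicate 1, above those of EXO-STD replicate 1 and EXO-HP replicate 3, which overlap each other, those of EXO-STD replicate 2 run from 20.2 to 177, and Myod1 spots range from 5.87 to 128 on EXO-STD replicate 1 alone.

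The 5 calcium handling genes had nearly level medians of 0.51, 0.45 and 0.52 above EXO-STD on EXO-HP replicates 1, 2 and 3. Atp2a1, the calcium pump of fast sarcoplasmic reticulum, read -1.04 and -1.35 under EXO-STD and -0.65, -0.75 and -0.67 under EXO-HP. The groups did not overlap, and the EXO-HP arrays agreed within 0.05 (SD) for a difference of 0.51 ± 0.20 (limma unadjusted p = 0.048, adjusted p = 0.891), and 0.33 with median scaling. Ryr1, the calcium release channel, read -7.28 and -7.71 under EXO-STD and -6.33, -5.70 and -6.55 under EXO-HP. It did not overlap between groups and was well above background on EXO-HP replicates 2 and 3 only (1.30 ± 0.32, limma unadjusted p = 0.0079, adjusted p = 0.884). Against the lowest detectable EXO-STD signal the EXO-HP mean was 1.08-fold. That mean takes the undetected EXO-HP replicate 1 value as read, so the fold is not a lower bound. The Ryr1 difference was 0.56 with quantile scaling, 0.21 in the deposited value table and 0.10 with normexp, and EXO-HP replicate 2 was then at 0.043, 0.0065 and -0.0053 relative to the EXO-STD mean. Cacna1s, the voltage sensor of the same junction, differed by 0.36 ± 0.23. Pvalb, the calcium buffer parvalbumin of fast fibres, read -0.98 and -1.91 under EXO-STD and -1.40, -1.13 and -1.65 under EXO-HP, all within the EXO-STD range (0.05 ± 0.34, 95% interval -0.80 to 0.90, and -0.13 with median scaling).

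Most energy genes, several of them among the most abundant messages of adult muscle, did not share the EXO-HP replicate 1 signal of Myl1 and the fast troponins. Ckm, the muscle creatine kinase, read -5.63 and -6.37 under EXO-STD and -5.42, -6.59 and -5.88 under EXO-HP, with the groups overlapping (0.03 ± 0.42, 95% interval -1.01 to 1.08, and -0.64 with quantile scaling). In processed signal it was 38.7 and 27.8, then 39.4, 23.5 and 35.3. The muscle enolase Eno3 differed by 0.07 ± 0.20 (95% interval -0.42 to 0.56) and Pgam2 by -0.07 ± 0.32, both well above background on all arrays. Glycogen phosphorylase (Pygm) differed by 0.72 ± 0.52 and the mitochondrial creatine kinase Ckmt2 by 0.51 ± 0.91. Myoglobin (Mb), the oxygen store of oxidative fibres, was 1.65 log2 units above the EXO-STD mean on EXO-HP replicate 1 and -0.90 from it on EXO-HP replicate 2. Over the 6 energy and oxygen genes the medians were 0.17, 0.01 and 0.34 on EXO-HP replicates 1, 2 and 3.

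The myogenic transcription factors were low and noisy. Myod1 had processed signals of 60.1 and 78.5 under EXO-STD and 59.0, 104.6 and 132.9 under EXO-HP (log2 difference 0.68 ± 0.38, limma unadjusted p = 0.132). It was 0.29 with quantile scaling, 0.099 with normexp and 0.067 with slide as a block. Its 10 spots had an SD of 1.35 and 0.87 log2 units on the EXO-STD arrays and 1.12, 0.66 and 0.31 on the EXO-HP arrays, which on 3 of the 5 arrays exceeded the group difference. Myog, which drives myoblast fusion genes, read -5.84 and -5.75 under EXO-STD and -4.96, -5.61 and -5.56 under EXO-HP (0.42 ± 0.27), and its groups did not overlap, though quantile scaling turned the difference to -0.23. Of 4 satellite cell and myoblast markers, Myf5 and Msc were well above background on no array, Pax7 was so on the EXO-HP arrays only and Cdh15 on all.

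The 3 members that stood over 1 log2 unit above every other array on EXO-HP replicate 1 were all fast fibre genes, and 0 slow genes did so. By their medians the lists were close: the 14 fast genes and the 8 slow genes had the same median on EXO-HP replicate 1, 0.72 above the EXO-STD mean. On EXO-HP replicate 2 these medians were 0.61 and 0.54, and on EXO-HP replicate 3 they were 0.09 and 0.17. Over the tested members, the fast median of the group difference exceeded the slow one by 0.05. With no filter on dim probes that gap was 0.39, since the filter removed Myh1, Myh4, Myl1 and Casq1 from the fast list and none from the slow list. Without EXO-HP replicate 1 the gap was -0.01.

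Known abundance in muscle was described the same way, with 16 members that textbooks give as very abundant in adult hindlimb muscle and 12 as less abundant. On EXO-HP replicate 1 the very abundant members had a median of 0.91 and 8 of the 16 exceeded 1 log2 unit, against 0.52 and 4 of 12 for the less abundant ones. Of all genes, 2.75% exceeded 1 log2 unit there. On EXO-HP replicate 2 the order was the other way, with medians of 0.41 and 1.77. On EXO-HP replicate 3 the medians were -0.15 and 0.51. Over all genes the medians on EXO-HP replicates 1, 2 and 3 were -0.01, 0.26 and 0.02, and dim genes read higher on EXO-HP replicate 2. Inside the very abundant list the genes diverged on EXO-HP replicate 1, with 7.67 for Myl1 and 2.74 for Tnni2 beside 0.57 for Ckm, 0.57 for Myh4, 0.08 for Eno3 and 0.04 for Pvalb. The very abundant list thus had the higher median on EXO-HP replicate 1 and the lower one on the other EXO-HP arrays.

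**Figure D4:**
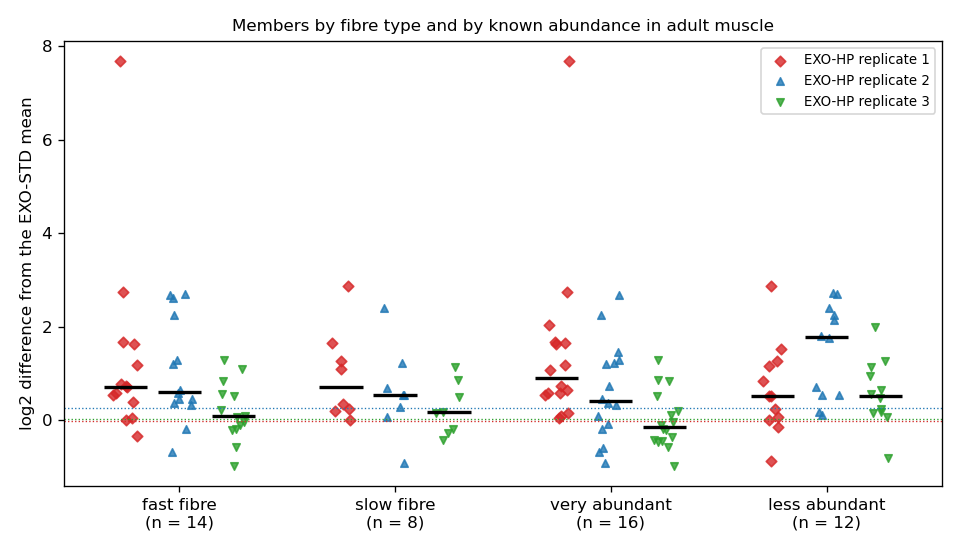
Log2 difference from the EXO-STD mean of each member in 4 lists (fast fibre, slow fibre, very abundant and less abundant in adult muscle) on EXO-HP replicates 1, 2 and 3; black bars are medians and dotted lines the medians of all genes. Fast and slow medians are level at 0.72 on EXO-HP replicate 1, and the less abundant list is highest, at 1.77, on EXO-HP replicate 2.

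Signal near background bears on these medians. The 10 members that were well above background on neither EXO-STD array had medians of 0.95, 2.32 and 0.31 on EXO-HP replicates 1, 2 and 3, where 7779 genes in the same state had -0.11, 1.60 and -0.20. The 25 members that both EXO-STD arrays detected had 0.35, 0.55 and 0.07, where 21992 such genes had 0.02, 0.11 and 0.03. Summed over members, the level in units of the array's 75th percentile was 5.01 and 4.73 under EXO-STD and 7.71, 6.55 and 5.64 under EXO-HP. Sums of this kind add levels of different probes, so they rest on the brightest probes and are not amounts of a cell type. For the 6 cardiac markers, of which 5 or 6 were well above background on each array, the sum was 0.41 and 0.40 under EXO-STD and 0.93, 0.57 and 0.43 under EXO-HP. Myl4, at a log2 level of -0.49, made up most of the sum on EXO-HP replicate 1. By marker, the numbers highest on EXO-HP replicates 1, 2 and 3 were 2, 3 and 1 of the 6, and the median differences from EXO-STD were 0.41, 0.83 and 0.31. For the 6 macrophage and leukocyte markers with a probe it was 10.66 and 11.4, then 16.3, 9.41 and 11.8, mostly from Itgam, while the other 5 were all highest on EXO-HP replicate 2. For the 6 acinar and duct markers it was 0.093 and 0.11, then 0.16, 0.20 and 0.10, with 4 of the 6 highest on EXO-HP replicate 2. For the 6 endothelial markers it was 4.41 and 2.66, then 3.44, 5.61 and 3.47, and for the 7 adipocyte markers 0.18 and 0.18, then 0.17, 0.34 and 0.19. The erythroid sum lay between 0.12 and 0.17 and the Schwann cell sum between 4.76 and 5.45. For the 7 fibroblast markers it was 0.17 and 0.18, then 0.17, 0.36 and 0.28, and for the 5 smooth muscle and pericyte markers 0.59 and 0.45, then 0.59, 0.81 and 0.59. For the 4 satellite cell markers it was 0.08 and 0.08, then 0.09, 0.16 and 0.12. The part of other cell types in the members' values was not tested.

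The wider muscle programme was read on 66 further striated muscle genes, of which 65 had a probe and 52 were tested. Of these 45 were higher and 7 lower under EXO-HP, where 62.8% of tested probes were higher. The median of the 52 was 0.33, against 0.07 over all tested genes. On EXO-HP replicates 1, 2 and 3 the medians of the 65 were 0.21, 0.97 and 0.07, where all genes had -0.01, 0.26 and 0.02. EXO-HP replicate 2 was the highest array for 39 of the 65 and for 43.6% of all genes. No other scaling is given for this list. At a limma unadjusted p under 0.05, 10 of the 52 were higher and 0 lower, against 5.36% and 0.238% of tested probes. None passed the adjusted threshold. Among those counted as higher, Ankrd1, Capn3, Clcn1, Cox8b, Csrp3, Myf6 and Myom3 were well above background on neither EXO-STD array. They entered the test only through EXO-HP arrays, so the count is a description and no support for a shift. Ankrd1, a stretch-responsive titin-binding protein, read -8.11 and -7.11 under EXO-STD and -4.75, -5.76 and -5.45 under EXO-HP, with no overlap (limma unadjusted p = 0.0023, adjusted p = 0.884). Like Ankrd1, the M-band protein Myom3 and the muscle cytochrome oxidase subunit Cox8b were well above background on neither EXO-STD array. Against the lowest detectable signal there, the EXO-HP mean of Ankrd1 was at least 1.97-fold and that of Cox8b at least 1.33-fold. For Cox8b the value on EXO-HP replicate 3 alone was 0.76-fold. The Myom3 mean was 1.55-fold, but Myom3 was not well above background on EXO-HP replicate 1, so this is not a lower bound.

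Promoters of the members are shown because myogenic factors of the Myod1 and Myog family bind the E-box, CANNTG, and serum response factor binds the CArG box of muscle actin genes. RefSeq promoters (build GRCm38.p6) were matched by symbol for 33 of the 40 members, and the 250 bases upstream of the start were searched on both strands. The E-box was found in 87.9% of these members and in 69.3% of 27025 genes. The CArG box was found in 12.1% of the members (Acta1, Ldb3, Myh4 and Myl3) and in 1.62% of genes, the MEF2 motif in 3.03% and 0.592%, and TATAAA in 18.2% and 14.3%. A match is a description of letters and not a binding site. The Myl1 sequence (chr1:66945057-66945306, minus strand) holds 1 E-box and 1 TATAAA on the opposite strand, and the Acta1 sequence (chr8:123894776-123895025, minus strand) holds 2 E-boxes, 1 CArG box and 1 TATAAA, all in capitals.
Myl1, upstream: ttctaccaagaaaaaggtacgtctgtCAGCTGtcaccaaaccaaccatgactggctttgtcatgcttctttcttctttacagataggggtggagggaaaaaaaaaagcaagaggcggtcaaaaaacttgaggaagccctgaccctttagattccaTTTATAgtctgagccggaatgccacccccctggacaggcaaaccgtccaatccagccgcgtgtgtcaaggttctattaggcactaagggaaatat
Acta1, upstream: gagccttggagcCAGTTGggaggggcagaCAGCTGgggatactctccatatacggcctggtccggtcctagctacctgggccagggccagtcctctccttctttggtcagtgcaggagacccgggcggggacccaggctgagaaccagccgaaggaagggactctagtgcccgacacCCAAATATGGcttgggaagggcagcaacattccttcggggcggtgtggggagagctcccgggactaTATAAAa
Myl1 and Acta1 thus both carry an E-box upstream of the start, as most genes of the table do, and they differed in the CArG box.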

How the data were processed

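RNA of MIN6 cells (2 EXO-STD and 3 EXO-HP samples) was read on 1-colour arrays. The deposited spot intensity values were made with Feature Extraction 10.7.3.1 by their headers, whereas version 9.1 of that program, and limma, appear in the submitters' notes on processing. The deposited value table, an alternative here, holds log2 values with a median of 7.93 on each array. Processed intensities were taken to log2, outlier spots dropped, spots of a probe averaged and each array's 75th percentile subtracted. A probe was tested when 2 or more arrays of a group had it well above background, which kept 31943 of 39429. The test was limma 3.58.1 (lmFit, eBayes and Benjamini-Hochberg adjustment, threshold 0.05) under R 4.3.3, tested on simulated data. Genes dim on all arrays of a group have folds as lower bounds against the lowest signal well above background. Values of the other group entered as read, so the fold is a lower bound only where that group was detected on each array used. The labels do not say that replicate numbers pair the samples, and the main fit used no pairing. Symbols came from the array tables, and all 55 member probes matched RefSeq. The number of arrays limits the precision.

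The members and lists were chosen with earlier results of these data known. Values by array are given for the 10 members with the smallest p, the 3 highest on EXO-HP replicate 1 and a fixed list of abundant, slow and lineage genes; other members have shorter accounts. Alternatives covered scaling, background correction, filter, slide block and left-out arrays. Values by array and non-overlap counts under each scaling, and unfiltered fits for Myl1, were chosen after seeing the data.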

Additional observations from a re-analysis of the deposited data

How the results depend on the processing

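With the looser flag (positive and significant against background) 36, 33, 40, 40 and 39 members were detected in place of 29, 26, 32, 38 and 33, and with any probe of a gene 34 were on EXO-HP replicate 3. The share of all genes was not computed for the looser flag or for any probe, so these counts cannot be set against other genes. The 15 other fits called 0 probes except the one without EXO-STD replicate 1 (range 0 to 3 over the 5 fits that leave out an array), and no named member passed the threshold in any. The members' median difference (0.50) was 0.22 with quantile scaling, 0.13 with normexp (0.13 without the filter too) and 0.17 in the deposited value table, where the medians of all probes were -0.02, -0.01 and -0.02; leaving out an array gave 0.35 to 0.64. The gap between fast and slow genes (0.05) was 0.20 with quantile scaling, 0.10 in the deposited table, 0.39 without the filter and 0.16 with a replicate block, and -0.011 to 0.16 with an array left out. For the shared replicate numbers, correlations of deviations between groups were 0.02 and -0.06. With 2 EXO-STD arrays their deviations mirror each other, so these values cannot exclude pairing. The replicate block, with 1 residual degree of freedom, called 0 probes, as did the main fit.

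Of 284 alternative differences of 20 named members, 30 changed sign, and the cause was not tested. With quantile scaling Ckm was -0.64, Myog -0.23, Mybpc2 -0.0015 and Myl2 -0.0020. With normexp Ckm was -0.15, Pvalb -0.073, Myog -0.049, Mybpc2 -0.025 and Myl2 -0.0097. In the deposited table Ckm was -0.29, Pvalb -0.075, Myog -0.075, Mybpc2 -0.048 and Myl2 -0.021. Median scaling gave Ckm -0.14 and Pvalb -0.13. Array weights gave Tnnc2 -0.16, Pvalb -0.11 and Myl2 -0.041. With slide as a fixed block Ldb3 was -0.14, with a random block Ckm was -0.042, and with the replicate block Ckm was -0.010. With an array left out, the range was -0.33 to 0.40 for Ckm, -0.41 to 0.51 for Pvalb, -0.38 to 0.71 for Tnnc2, -0.039 to 0.72 for Myl2 and, without the filter, -0.44 to 3.74 for Myl1.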

Other observations

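Some genes that were high on EXO-HP replicate 1 alone were not adult skeletal isoforms. Actc1, the cardiac and embryonic actin, read -8.26 and -7.82 under EXO-STD and -3.93, -6.83 and -8.17 under EXO-HP, and was well above background on EXO-HP replicate 1 only. Myl4, the atrial and embryonic essential light chain, read -1.89 and -2.22 under EXO-STD and -0.49, -2.03 and -2.09 under EXO-HP. The imprinted RNA H19, abundant in embryonic muscle, read -5.13 and -4.65 under EXO-STD and 0.50, -4.19 and -4.30 under EXO-HP, rank 4 of 31821 genes by its margin on EXO-HP replicate 1. Actc1 ranked 17 by the same measure. Actc1, Myl4 and H19 were singled out after their values were seen, and no explanation was tested. They were picked from 128 genes that exceeded all other arrays by over 1 log2 unit there. Of the 65 other striated muscle genes with a probe, 3 did so. The developmental myosin heavy chains Myh3 and Myh8 did not: Myh3 led by 0.71, and Myh8 was highest on EXO-HP replicate 2.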
